A study of Mus musculus with 6 samples.

Results

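Potassium channel genes were examined in 6 mouse medulloblastomas, which are cerebellar tumours, 3 with wild type Crebbp and 3 without it. The members are all genes whose platform symbol begins with Kcn and a further letter, without Kcnk9, Kcnq1, Kcnq1ot1 and Kcnj8, which left 86 of 22180 measured genes. The rule goes by symbol and not by measured values, though the members were chosen with earlier results of these data known. A gene with several array features is represented by the feature with the highest mean over the 6 arrays.

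All tumours carried SmoM2 Fl/+, a Cre-dependent, constantly active form of Smoothened, the signal transducer of the Sonic hedgehog pathway, and a Cre recombinase under Math1 (Atoh1) control, which is active in granule neuron progenitors. The control genotype is written Math1Cre::SmoM2Fl/+ and the knockout genotype Math1Cre::CrebbpFl/FlSmoM2Fl/+, and the sample descriptions write the recombinase as Math1CreERT2, its tamoxifen-dependent form. Tamoxifen (1 mg) was injected on postnatal day 5 and tumour tissue was taken on postnatal day 60. RNA of the whole tumour was measured, 1 Affymetrix whole-transcript array per tumour, so cells outside the Math1 lineage contribute to each value and keep their Crebbp. Whether each tumour of a genotype is from its own animal or litter is not given, so the p-values reflect the spread among these tumours only, which may be technical, and precision is limited by having 3 arrays a group.

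Values are log2 levels after RMA, a procedure that corrects background, brings arrays to a common scale and summarises the probes of a feature. Each change is the knockout mean minus the wild type mean on that scale. Crebbp itself measured 11.80, 11.76 and 11.70 in wild type and 11.24, 11.34 and 11.20 in knockout tumours. Its change was -0.50 (SE 0.09, limma adjusted p = 0.0948), so the deleted gene itself did not pass the threshold of 0.05. Array medians lay between 6.91 and 7.00, and arrays correlated at 0.984 to 0.993 across genes. All 14 listed markers of granule neuron progenitors were measured, with a mean log2 level of 10.82 to 10.99 in wild type and 10.64 to 10.82 in knockout tumours. Of these, 11 had negative changes, and 8 were lower and 2 higher with an unadjusted limma p under 0.05, beside 6.51% and 7.24% of all genes. The cell cycle gene Ccnd2 had a change of -0.69 (SE 0.12) and the hedgehog target Hhip one of 1.46 (SE 0.22). Of 13 measured oligodendrocyte lineage markers 11 had negative changes, 5 of them with an unadjusted p under 0.05, with a mean level of 8.59 to 9.27 in wild type and 8.57 to 8.85 in knockout tumours, and Pdgfra and Sox10 had changes of -0.45 and -0.69. The part of these cells in the lower channel values was not tested. The X-linked RNA Xist was at 5.13 to 5.74 in wild type and 12.26 to 12.45 in knockout tumours, and the Y-linked Kdm5d, Eif2s3y and Uty ran the other way, so the genotype and the sex of the animals cannot be told apart here. Of the members, 2 lie on the X chromosome, Kcnd1 (log2 change 0.03, SE 0.15) and Kcne1l (0.22, SE 0.16).

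Potassium channels let potassium ions leave or enter a cell along their gradient and so set its resting potential, the shape of its action potentials and its firing rate. Voltage-gated channels are built of alpha subunits joined by auxiliary subunits, calcium- and sodium-activated channels couple firing to ion entry, inward rectifiers and leak channels hold the resting potential. In the cerebellum, granule neurons acquire A-type and leak currents as they mature, Purkinje cells and basket cell axons rely on voltage-gated and calcium-activated channels, and astrocytes and Bergmann glia clear potassium through inward rectifiers.

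No potassium channel gene passed the threshold in the comparison of knockout with wild type tumours. Of 86 members 0 had a limma adjusted p under 0.05, where 0.207% of all genes did, and the lowest adjusted p among members was 0.148. An unadjusted p under 0.05 was found for 22 members, 10 higher and 12 lower in knockout tumours. That is 25.6% of members beside 13.8% of all genes, with 7.24% of all genes higher and 6.51% lower. In 23 members the groups did not overlap, 8 higher and 15 lower, which is 26.7% of members beside 19.6% of all genes (10.2% higher, 9.43% lower). The members as a whole were not displaced, with a median log2 change of -0.03, quartiles of -0.14 and 0.16, and 40 positive against 46 negative changes. Over all genes the median was 0.00 and 50.9% of changes were positive. The largest changes were those of Kcnn2 (1.07) and Kcnh8 (-0.98), and 56 members had a change of less than 0.25 in either direction.

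Members at or above the median level of all genes numbered 38, and 12 of these (31.6%) had an unadjusted p under 0.05 beside 17.6% of all genes at that level. Of the 12, 7 were higher (8.77% of all such genes were) and 5 lower (8.84%). Among the 48 dimmer members it was 10 (20.8%) beside 9.89% of all dimmer genes, 3 higher (5.7%) and 7 lower (4.19%).

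More of the large changes were upward. A log2 change of at least 0.5 in either direction was found in 12 members, 14% beside 4.27% of all genes. Upward it was found in 9 members, 10.5% beside 2.43% of all genes, and downward in 3, 3.49% beside 1.84%. The members with large upward changes were Kcnn2, Kcnj10, Kcna2, Kcnt1, Kcnj16, Kcnk12, Kcnd2, Kcnh1 and Kcnj6, and those with large downward changes were Kcnh8, Kcnh5 and Kcnh7, all of the EAG, ERG and ELK family. These 12 names were chosen after their values were seen.

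**Figure D1:**
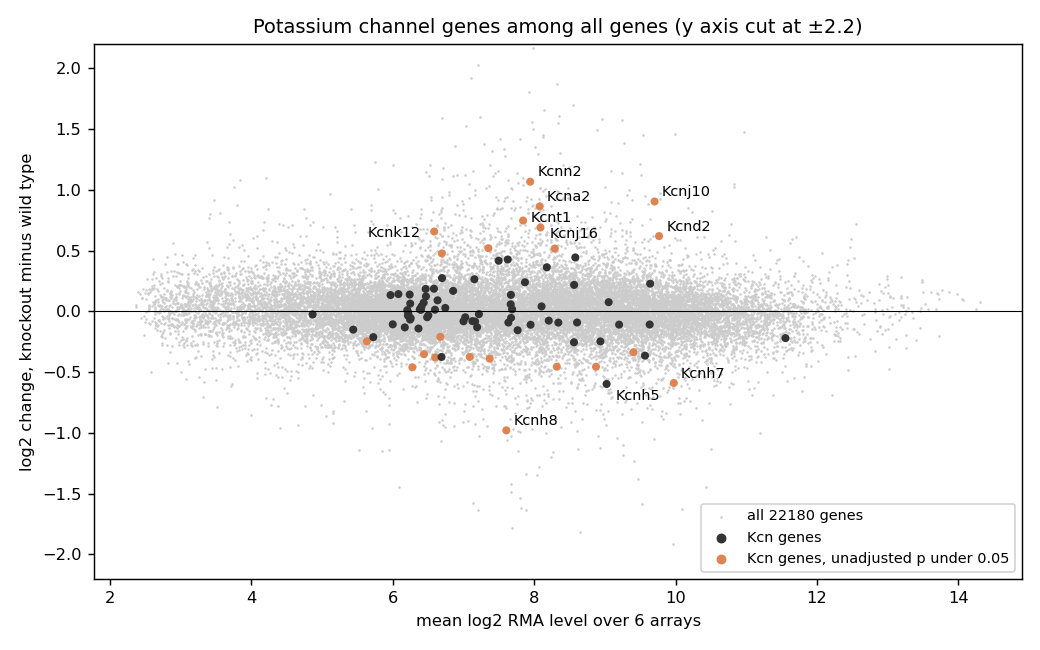
Log2 change (knockout minus wild type, vertical axis) against the mean log2 level over 6 arrays (horizontal axis) for all 22180 genes in grey and 86 potassium channel genes in black, or orange where the unadjusted p was under 0.05. The potassium channel genes lie on both sides of 0, from Kcnh8 at -0.98 to Kcnn2 at 1.07.

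Single tumours decided which members passed. Without wild type 3, Kcnj10, Kcnj16 and Kcnn2 passed (limma adjusted p = 0.0265, 0.033 and 0.0473), when 0.446% of all genes did. Without knockout 2, Kcna2, Kcnt1 and Kcnh8 passed (0.0409, 0.0209 and 0.0404), when 0.577% of all genes did. When any of the other 4 tumours was left out, 0 members passed. Over all alternatives the adjusted p ranged from 0.0265 to 0.40 for Kcnj10, 0.033 to 0.555 for Kcnj16, 0.0473 to 0.351 for Kcnn2, 0.0409 to 0.37 for Kcna2, 0.0209 to 0.555 for Kcnt1 and 0.0404 to 0.56 for Kcnh8. Of the 22 members with an unadjusted p under 0.05, the knockout tumour closest to the wild type mean was knockout 2 in 16, or 72.7%, beside 45.4% of the 3050 such genes overall. The number of higher members among those with an unadjusted p under 0.05 was 16 without knockout 2, 5 without knockout 3 and 6 without wild type 1. In these fits 6.17%, 6.16% and 5.84% of all genes were higher at that threshold.

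**Figure D2:**
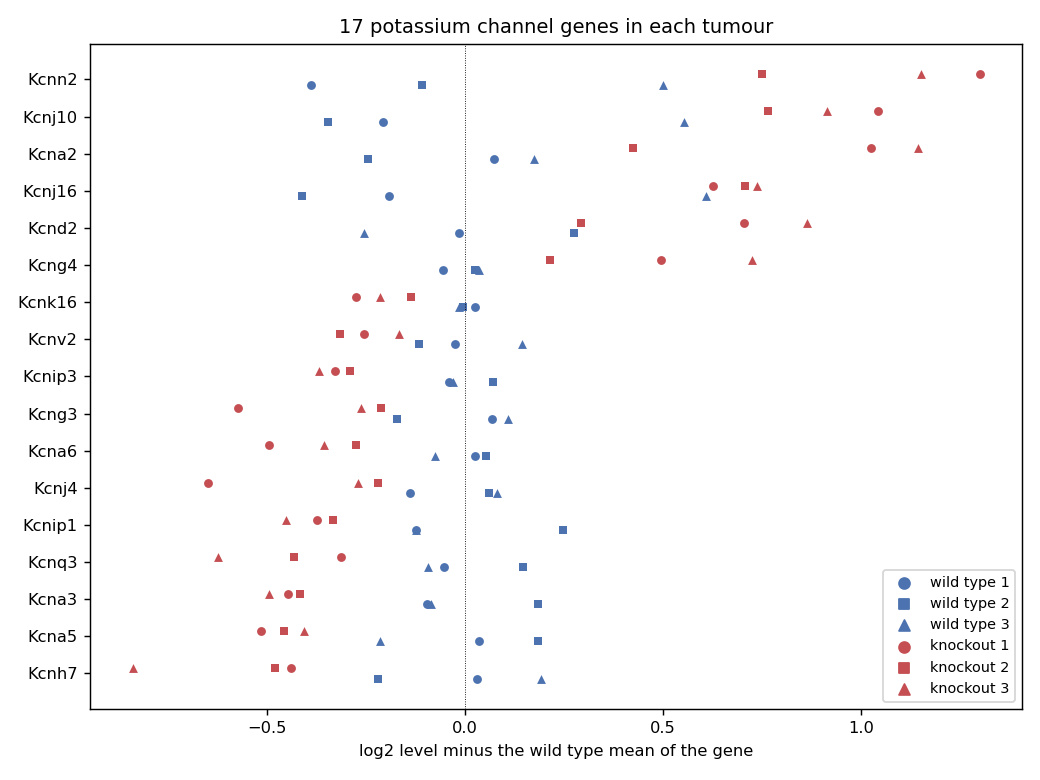
Log2 level of each tumour minus the wild type mean of the gene (horizontal axis) for the 17 members with an unadjusted p under 0.05 whose groups did not overlap, wild type in blue and knockout in red, with a symbol per replicate. Among the 6 higher members knockout 2 (red square) lies nearest to wild type in Kcnn2, Kcnj10, Kcna2, Kcnd2 and Kcng4, and wild type 3 (blue triangle) is the highest wild type value in Kcnn2, Kcnj10, Kcna2, Kcnj16 and Kcng4.

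The Kv1 family, called Shaker type, forms low-threshold channels that restrain firing in axons and terminals. On the features used, 4 of its 8 members had positive and 4 negative changes, Kcna6 among the latter with a second feature of opposite sign. The groups did not overlap in 5 of them, beside 19.6% of all genes. Kcna2, a main axonal subunit, was at 7.72, 7.40 and 7.82 in wild type and 8.67, 8.07 and 8.79 in knockout tumours. All knockout values were above all wild type values, with knockout 2 the lowest of them. The change was 0.86 (SE 0.20, limma adjusted p = 0.153), a knockout level 1.82 times that of wild type. Kcna1, its usual partner, was at 8.81, 8.12 and 8.15 in wild type and 8.83, 8.55 and 9.03 in knockout tumours. Its groups overlapped through wild type 1, and the change of 0.44 had a 95% interval of -0.04 to 0.92.

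Kcna3, known from lymphocytes and microglia as well as neurons, ran the other way. It was at 8.45, 8.73 and 8.46 in wild type and 8.10, 8.13 and 8.05 in knockout tumours, a change of -0.46 (SE 0.10, adjusted p = 0.149). The knockout values lay close together and all below wild type. Microglia and macrophage markers had negative changes in 16 of 17 measured genes, while 50.9% of all genes had positive ones. Their mean log2 level was 8.98 to 9.21 in wild type and 8.64 to 8.96 in knockout tumours. Their part in the Kcna3 value was not tested. Among them the Fc receptor Fcgr3 had a change of -0.79 (SE 0.14) and the protease Ctss one of -0.57 (SE 0.11). The markers Tyrobp, P2ry12, Tmem119 and Trem2 had changes near 0, from -0.07 to -0.02. The exception, Cd68, had a change of 0.11 (SE 0.19). Kcnk13, a leak channel known from microglia, had a change of 0.17 (SE 0.11). Kcna5, a subunit known from heart, vessels and glia, was at 6.54, 6.69 and 6.29 against 5.99, 6.05 and 6.10, a change of -0.46 (SE 0.12, adjusted p = 0.184).

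Kcna6 has a pair of features that went in opposite directions. The brighter was at 7.30, 7.33 and 7.20 in wild type and 6.78, 7.00 and 6.92 in knockout tumours, a change of -0.37 (SE 0.10, adjusted p = 0.184). The dimmer had means of 6.79 and 7.11, a change of 0.33 (SE 0.10), and on neither feature did the groups overlap. The direction of Kcna6 is therefore uncertain, and with the features averaged its change was -0.02. The brain subunit Kcna4 had a change of 0.23 (SE 0.12), and Kcna7 and Kcna10, which are little known from brain, had changes of 0.14 and -0.06.

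Several Kv1 genes lie in clusters, where the changes of Kcna2 and Kcna1 were opposite in sign to those of Kcna3 and Kcna5 beside them. On chromosome 3 Kcna3, Kcna2 and Kcna10 follow each other with no other protein-coding gene between them in the RefSeq annotation, with changes of -0.46, 0.86 and -0.06. On chromosome 6 Kcna5, Kcna1 and Kcna6 do so with changes of -0.46, 0.44 and -0.37, where the dimmer feature of Kcna6, at 0.33, has the sign of Kcna1. The 250 bases before the start of Kcna2 and of its neighbour Kcna3 (RefSeq, GRCm38.p6, plus strand, at chr3:107101317-107101566 and chr3:107035912-107036161) are shown because these adjacent genes differed in opposite directions. Capitals mark the GC box GGGCGG, the letters that SP1-type factors bind, found on either strand.
Kcna2: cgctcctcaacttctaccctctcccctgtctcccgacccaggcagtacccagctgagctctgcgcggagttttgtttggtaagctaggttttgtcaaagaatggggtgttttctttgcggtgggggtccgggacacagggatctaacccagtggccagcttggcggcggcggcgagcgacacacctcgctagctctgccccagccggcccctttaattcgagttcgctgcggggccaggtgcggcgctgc
Kcna3: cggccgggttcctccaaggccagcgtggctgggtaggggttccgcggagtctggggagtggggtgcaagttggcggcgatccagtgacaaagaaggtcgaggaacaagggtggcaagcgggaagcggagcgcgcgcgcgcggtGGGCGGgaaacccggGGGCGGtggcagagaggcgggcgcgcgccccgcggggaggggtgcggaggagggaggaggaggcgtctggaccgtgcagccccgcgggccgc

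The printed 250 bases of Kcna3 hold GC boxes and those of Kcna2 hold none. Whole windows of 300 bases also take in the first 50 bases after the start, and there GGGCGG on either strand was found in 43 of the 68 members with a window, Kcna2 and Kcna3 both included (63.2%), beside 38.2% of all genes with a window. A gene counted if any of its windows held the letters, and the 68 members have 93 windows. All genes with a window were 27025 RefSeq genes, whether or not measured on the array. The median GC content, from the first window of each gene, was 60% in members and 52.7% in all genes. The cAMP response element TGACGTCA, which CREB binds, was in 0 member windows and in 2.03% of all genes, and the GLI site GACCACCCA was in 0 and in 0.289%. The E-box CAGATG, of the kind bound by proneural factors, was in 16 members (23.5%) beside 19.2% of all genes, and the TATA box TATAAA in 4 (5.88%) beside 15.7%. A match or its absence describes these letters in this window and nothing about a factor.

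Among inward rectifiers, the glial pair had the largest changes. Kcnj10 (Kir4.1) is the main potassium-clearing channel of astrocytes and Bergmann glia, and Kcnj16 (Kir5.1) joins it in mixed channels. Kcnj10 was at 9.04, 8.90 and 9.80 in wild type and 10.29, 10.01 and 10.16 in knockout tumours. Kcnj16 was at 7.55, 7.33 and 8.35 in wild type and 8.37, 8.45 and 8.48 in knockout tumours. In both genes wild type 3 stood near the knockout tumours and apart from the other wild type tumours, and the groups did not overlap. The changes were 0.90 (SE 0.22, limma adjusted p = 0.178) and 0.69 (SE 0.24, adjusted p = 0.278), and 1.18 and 0.99 without wild type 3.

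The mean of the glial markers was high in the same tumours. All 18 listed markers of astrocytes and Bergmann glia were measured and 14 had positive changes, 4 of them with an unadjusted p under 0.05, beside 7.24% of all genes higher. Their mean log2 level was 9.16, 9.08 and 9.79 in wild type and 9.79, 9.59 and 9.72 in knockout tumours, so wild type 3 was again at the level of the knockout group. The glycolytic enzyme Aldoc was at 10.02, 9.52 and 11.16 against 12.05, 11.15 and 11.91, with wild type 3 the highest wild type value. The transcription factor Sox2 was at 8.86, 8.75 and 8.80 against 9.46, 9.13 and 9.17, where wild type 3 did not stand apart. The markers Sox9, Tnc, Slc1a2 and Gdf10 had negative changes of -0.34, -0.43, -0.16 and -0.27. The part of glial content in the Kcnj10 and Kcnj16 values was not tested. In bulk tumour RNA more cells of a type cannot be told apart from more RNA per cell. Kcnj9, which lies next to Kcnj10 on chromosome 1, had a change of 0.04 (SE 0.16), and Kcnj2, next to Kcnj16 on chromosome 11, had a change of 0.12.

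The 250 bases before the start of Kcnj10 (GRCm38.p6, plus strand, chr1:172340960-172341209) are shown as the promoter of the brighter glial channel, with GC boxes in capitals, here in the form CCGCCC of the opposite strand.
Kcnj10: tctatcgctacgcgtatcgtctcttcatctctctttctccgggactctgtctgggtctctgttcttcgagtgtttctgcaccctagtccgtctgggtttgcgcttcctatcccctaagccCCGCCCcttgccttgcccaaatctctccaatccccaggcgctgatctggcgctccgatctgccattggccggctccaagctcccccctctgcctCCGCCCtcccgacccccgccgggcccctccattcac

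The other 11 inward rectifiers had changes from -0.38 to 0.52. Kcnj3, Kcnj6 and Kcnj9 encode GIRK subunits, opened by G proteins downstream of inhibitory receptors and found in granule neurons. Kcnj6 was at 8.14, 8.23 and 7.73 in wild type and 8.10, 8.79 and 8.76 in knockout tumours, a change of 0.52 (SE 0.21, adjusted p = 0.342). Its groups overlapped because knockout 1 lay among the wild type values. Kcnj6 lies on chromosome 16, as does Crebbp, and the other members on that chromosome, Kcnj15, Kcne1 and Kcne2, had changes of -0.14, 0.01 and -0.38. Kcnj3 was at 9.95, 9.82 and 9.30 against 9.37, 9.61 and 9.75, with a change of -0.11 (SE 0.18) and overlapping groups. Its dimmer feature had means of 7.50 and 6.72, a change of -0.78 (SE 0.20) with no overlap. Kcnj4, a strong inward rectifier of forebrain neurons, was at 6.65, 6.85 and 6.87 against 6.14, 6.57 and 6.52, a change of -0.38 (SE 0.14, adjusted p = 0.293).

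**Figure D3:**
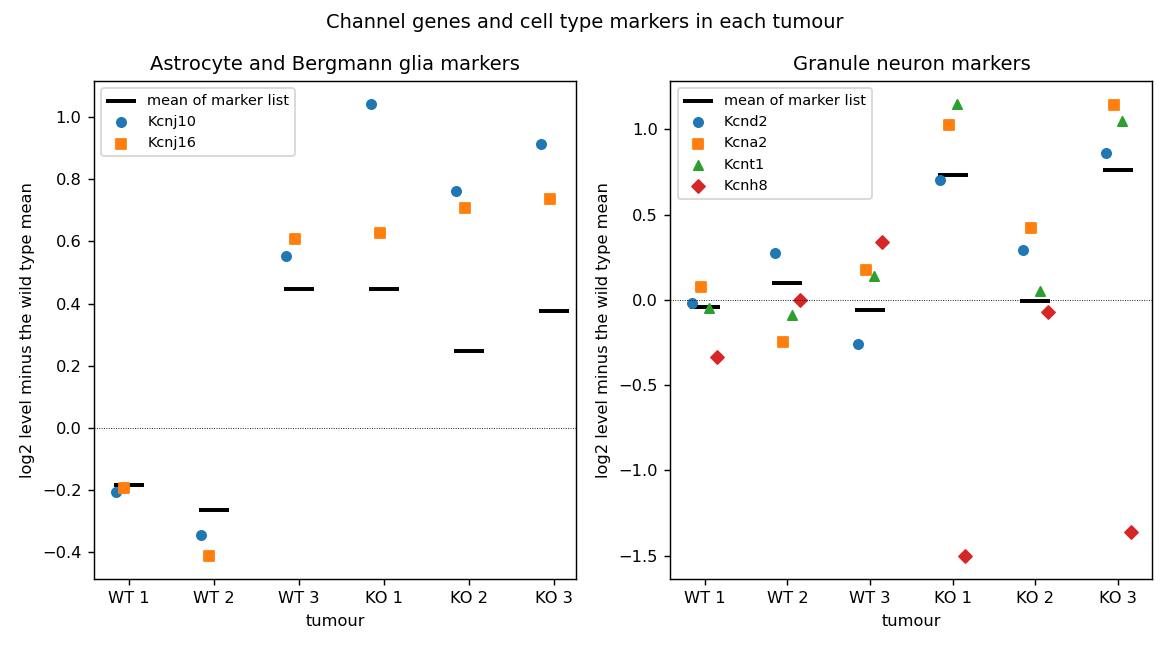
Log2 level minus the wild type mean (vertical axis) in each wild type (WT) and knockout (KO) tumour, for channel genes (symbols) and for the mean of a marker list (black bars). On the left, Kcnj10, Kcnj16 and the astrocyte and Bergmann glia markers are all high in WT 3. On the right, KO 2 lies near wild type in the granule neuron markers, Kcnt1 and Kcnh8. Kcnt1 and Kcnh8 were chosen for this panel after their values were seen. In Kcnd2 and Kcna2, also on the right, KO 2 lies above every wild type value.

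In the channels activated by calcium or sodium, the largest changes came with a low value in knockout 2. Kcnn2 (SK2) is a calcium-activated channel that produces the afterhyperpolarisation and is prominent in Purkinje cells. It was at 7.02, 7.30 and 7.91 in wild type and 8.71, 8.16 and 8.56 in knockout tumours. The groups did not overlap, with wild type 3 the highest wild type value and knockout 2 the lowest knockout value. The change of 1.07 (SE 0.24, limma adjusted p = 0.148), a knockout level 2.09 times that of wild type, was the largest of any member. Kcnt1 (Slack), a sodium-activated channel, was at 7.42, 7.38 and 7.61 in wild type and 8.62, 7.52 and 8.52 in knockout tumours. Knockout 2 lay inside the wild type range, and the change was 0.75 (SE 0.27, adjusted p = 0.294).

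The mean levels of neuron marker lists showed the same tumour apart. The 17 granule neuron markers, all measured, had a mean log2 level of 9.03, 9.17 and 9.01 in wild type and 9.80, 9.06 and 9.83 in knockout tumours. Of these markers 11 had positive and 6 negative changes, with a median of 0.33. With an unadjusted p under 0.05, 6 were higher and 3 lower, beside 7.24% and 6.51% of all genes. The 3 lower were transcription factors, Neurod1 with a change of -1.13 (SE 0.23), Zic2 with -0.56 (SE 0.13) and Zic1 with -0.33 (SE 0.10), and in them knockout 2 lay with the other knockout tumours. Gabra6, the GABA receptor subunit of mature granule neurons, named after its values were seen, was at 5.33, 6.58 and 8.53 against 10.35, 7.74 and 10.49. Markers of Purkinje cells and inhibitory neurons, 13 of 16 measured, had a mean level of 7.15, 7.52 and 7.69 in wild type and 8.30, 7.69 and 8.23 in knockout tumours. Of the 13, 12 had positive changes, beside 50.9% of all genes. The exception, the transcription factor Lhx1, had a change of -0.49 (SE 0.11), and Gad1, a GABA-synthesising enzyme, one of 0.47 (SE 0.11). The part of neuronal content in the channel values was not tested.

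Of the other activated channels, none had a change as large as that of Kcnn2 or Kcnt1. The large-conductance channel Kcnma1 (BK), opened by calcium and voltage together, was at 8.49, 8.36 and 9.10 against 8.83, 8.10 and 8.75, a change of -0.09 with a 95% interval of -0.66 to 0.48. Kcnn3 and Kcnn1, the other small-conductance channels of brain, had changes of 0.27 and 0.24, and Kcnn4, known from blood cells, one of -0.13. Kcnt2 had a change of 0.06. Kcnu1, a testis channel, was listed at 4.88 and 4.85. Sex-linked genes in the tumours of the opposite pattern gave 12 values from 4.31 to 5.74 as a rough guide to absent transcripts, and 4 members had a mean at or below the highest of them, Kcnu1, Kcnc2, Kcnv2 and Kcnip2.

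The Kv4 family (Shal type) carries the A-type current that delays firing. Kcnd2 (Kv4.2), the A-type subunit of granule neurons, was at 9.44, 9.73 and 9.20 in wild type and 10.16, 9.75 and 10.32 in knockout tumours. The groups did not overlap, but knockout 2 lay just above wild type 2. The change was 0.62 (SE 0.18, limma adjusted p = 0.223), and 0.78 without knockout 2. Kcnd3 and Kcnd1 had changes of -0.05 and 0.03, so the family held a single member with a change above 0.1. The 250 bases before the start of Kcnd2 (GRCm38.p6, plus strand, chr6:21215096-21215345) are shown, with a GC box in capitals, as those of the granule neuron channel with the largest change within its family.
Kcnd2: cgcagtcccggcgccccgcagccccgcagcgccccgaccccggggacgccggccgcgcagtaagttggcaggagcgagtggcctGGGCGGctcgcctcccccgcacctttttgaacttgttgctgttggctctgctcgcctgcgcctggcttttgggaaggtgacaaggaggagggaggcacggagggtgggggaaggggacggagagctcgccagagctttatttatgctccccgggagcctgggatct

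KChIP proteins, encoded by the Kcnip genes, are calcium-binding auxiliary subunits of Kv4 channels, and their genes had changes in both directions. Kcnip3, which also encodes the transcriptional repressor DREAM, was at 9.53, 9.64 and 9.54 in wild type and 9.24, 9.28 and 9.20 in knockout tumours. The change was small, -0.34 (SE 0.09, adjusted p = 0.183), with tight groups that did not overlap. Kcnip1 was at 7.44, 7.81 and 7.44 against 7.19, 7.23 and 7.11, a change of -0.39 (SE 0.12, adjusted p = 0.238), again without overlap. Kcnip4 was at 7.21, 7.08 and 7.95 against 8.25, 6.77 and 8.50, so knockout 2 was the lowest of all 6 tumours. Its change of 0.43 had a 95% interval of -0.60 to 1.45, and was 0.96 without knockout 2. Kcnip2 had a change of -0.21.

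None of the remaining Kv auxiliary genes had an unadjusted p under 0.05. The beta subunits Kcnab1, Kcnab2 and Kcnab3, which attach to Kv1 channels, had changes of 0.26, -0.11 and 0.19. Of the KCNE genes, Kcne1, Kcne2, Kcne3 and Kcne4 had changes of 0.01, -0.38, 0.01 and 0.04. In Kcne2 wild type 1 stood apart at 7.80, while the other 5 tumours lay between 6.35 and 6.58. Among the 4 measured BK auxiliary subunits, the neuronal Kcnmb4 had the largest change, -0.25 (SE 0.13), and Kcnmb3 was lower without overlap by 0.13 on the log2 scale.

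In the EAG, ERG and ELK family 7 of 8 members had negative changes, with a median of -0.06. Kcnh7 (Erg3), a channel that damps repetitive firing, was at 10.30, 10.05 and 10.46 in wild type and 9.83, 9.79 and 9.43 in knockout tumours. The groups did not overlap, and the change was -0.59 (SE 0.15, limma adjusted p = 0.182). Kcnh8 (Elk1) was at 7.76, 8.09 and 8.43 in wild type and 6.59, 8.02 and 6.73 in knockout tumours. Here knockout 2 lay within the wild type range while knockout 1 and 3 were below it, and the change of -0.98 (SE 0.36, adjusted p = 0.303) was -1.43 without knockout 2.

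Within the same family Kcnh1 (Eag1), a channel also studied in cancer cells, was higher in knockout tumours. It was at 7.18, 7.37 and 6.73 against 7.90, 7.27 and 7.68, a change of 0.52 (SE 0.21, adjusted p = 0.326), with overlap through knockout 2. Its close relative Kcnh5 (Eag2), known from medulloblastoma, was at 9.22, 9.95 and 8.80 against 8.60, 9.07 and 8.50. The groups overlapped, and the change of -0.60 had a 95% interval of -1.25 to 0.06. Kcnh2 (Erg1), the cardiac repolarising channel, had a change of -0.08.

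Of the Kv7 genes, which include carriers of the M-current that stabilises the resting potential, 2 are members here. Kcnq3 was at 9.05, 9.25 and 9.01 in wild type and 8.79, 8.67 and 8.48 in knockout tumours. All knockout values were below all wild type values, with a change of -0.46 (SE 0.11, adjusted p = 0.182). Kcnq5 had a change of 0.08 (SE 0.27), with wild type values from 8.34 to 9.46.

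No Kv3 or Kv2 member had an unadjusted p under 0.05. The Kv3 (Shaw type) subunit Kcnc1, which permits high firing rates, was at 8.04, 8.05 and 7.90 against 8.51, 7.86 and 8.71, a change of 0.36 (SE 0.20, adjusted p = 0.483). Knockout 2 was the lowest of all tumours, and the change was 0.61 without it. Kcnc4 had a larger change than Kcnc1, 0.42 (SE 0.18), with overlapping groups. Kcnb2 (Kv2.2), a delayed rectifier, was at 9.74, 9.77 and 9.74 against 8.86, 9.64 and 9.65, a change of -0.36 (SE 0.20). Its groups did not overlap, with knockout 1 apart from the other 5 tumours.

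The electrically silent subunits, which form no channel alone and modify Kv2 channels, had changes from -0.35 to 0.48. Kcng4 (Kv6.4) was at 6.40, 6.48 and 6.49 in wild type and 6.95, 6.67 and 7.18 in knockout tumours, a change of 0.48 (SE 0.13, limma adjusted p = 0.203) without overlap. Kcng3 (Kv6.3) was at 6.68, 6.44 and 6.72 against 6.04, 6.40 and 6.35, a change of -0.35 (SE 0.13, adjusted p = 0.299), also without overlap. Kcnv2, best known from photoreceptors, was at 5.73, 5.64 and 5.90 against 5.50, 5.44 and 5.59, a change of -0.25 at a level near that of absent transcripts. The other 7 silent subunits had smaller changes and overlapping groups.

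Tandem-pore leak channels, which set the resting potential, had mostly small changes. Kcnk1 (TWIK1) was at 11.88, 11.83 and 11.28 against 11.24, 11.46 and 11.63, a change of -0.22 with a 95% interval of -0.63 to 0.19. Kcnk12 (THIK2) was at 6.02, 6.19 and 6.57 against 6.82, 6.48 and 7.44, a change of 0.66 (SE 0.25, adjusted p = 0.306) with overlapping groups. Kcnk16 (TALK1), a pancreatic channel, was at 6.80, 6.77 and 6.76 against 6.50, 6.64 and 6.56, a change of -0.21 (SE 0.09, adjusted p = 0.337). Kcnk2 (TREK1) and Kcnk6 were also lower without overlap, with changes of -0.25 and -0.16. Kcnk3 was not analysed here. The symbols outside these families were Kcnrg, a regulator of Kv assembly, and Kcnd3os, an antisense RNA of Kcnd3, with changes of -0.11 and -0.07.

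**Figure D4:**
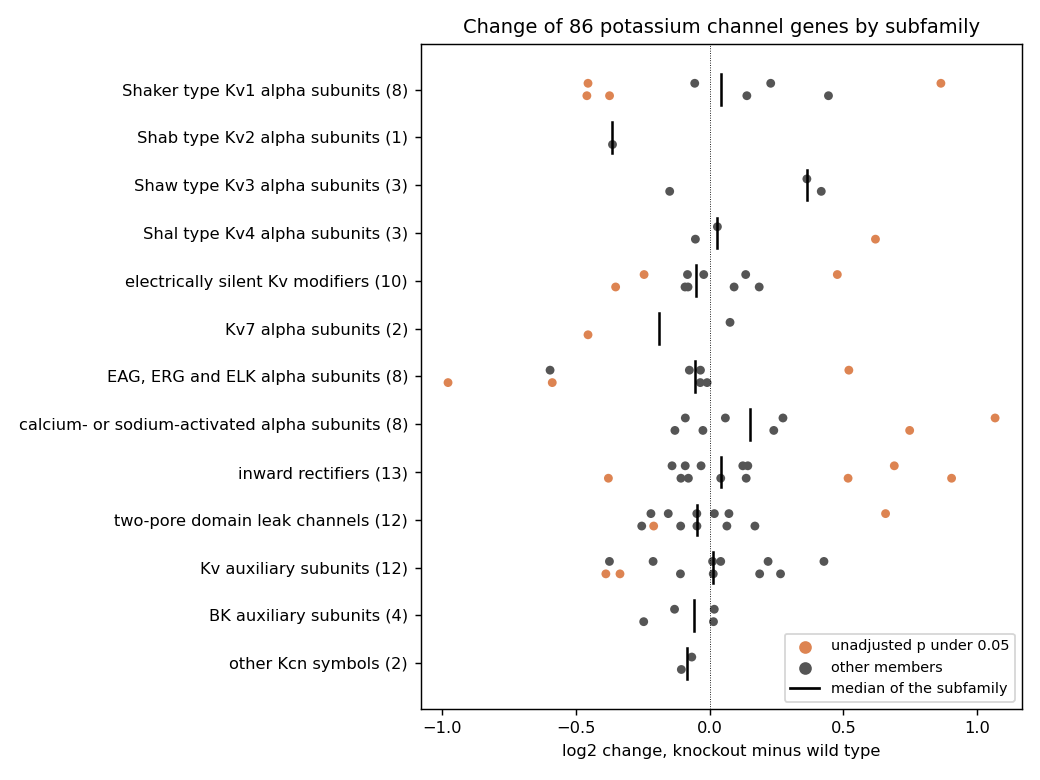
Log2 change (knockout minus wild type, horizontal axis) of the 86 members, 1 point each, by subfamily (vertical axis, number of members in brackets), with the median as a bar and members with an unadjusted p under 0.05 in orange. Points fall on both sides of 0 in most families, while 7 of the 8 EAG, ERG and ELK members are negative, with a family median of -0.06. Of these, Kcnh2, Kcnh3, Kcnh4 and Kcnh6 lie close to 0, from -0.08 to -0.01.

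Other genes of membrane excitability also had 0 members past the threshold. Of 17 partner genes of potassium channels, all measured, 2 were higher and 6 lower with an unadjusted p under 0.05, beside 7.24% and 6.51% of all genes, and the median change was -0.12. Lgi1, a secreted partner of Kv1 channels, had a change of 0.63 (SE 0.18) and the scaffold Dlg4 a change of -0.33 (SE 0.10). Of the Kv4 partners, named after their values were seen, Dpp10 was at 7.21, 7.04 and 7.31 against 8.16, 7.22 and 8.13, and Dpp6 had a change of -0.08. Dpp10 thus showed the knockout 2 pattern described for Kcnt1.

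Of 15 genes for potassium transport and HCN pacemaker channels, 10 were measured, 1 higher and 2 lower with an unadjusted p under 0.05 (7.24% and 6.51% of all genes). The neuronal potassium-chloride exporter Slc12a5 had a change of 1.01 (SE 0.28, limma adjusted p = 0.206) and the chloride importer Slc12a2 a change of -0.28 (SE 0.09). Of 25 sodium and calcium channel genes, 23 were measured, 3 higher and 1 lower with an unadjusted p under 0.05, and these 4 are a share near the 13.8% of all genes. Their median change was 0.10. The L-type channel Cacna1d had a change of -0.42 (SE 0.11, adjusted p = 0.184) and the beta subunit Cacnb4 a change of 0.49 (SE 0.15).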

How the data were processed

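The authors deposited log2 expression values per array, which per the submitters' processing notes come from RMA and the oligo package, with versions and genome build not given in the sources used here. Of 41345 features, 23521 had 1 platform gene symbol, 1814 several (not used, which leaves out Kcnk3) and 16010 none here. All 86 members matched RefSeq by gene identifier, 7 have several features, and the feature with the highest mean was used. The 22180 genes were fitted together with limma 3.58.1 in R 4.3.3 (lmFit, eBayes without trend, two-sided, no filter on level), adjusted by Benjamini-Hochberg across the 22180 genes, at a threshold of 0.05. The fit was tested on simulated data.

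Members and lists were chosen with earlier results of these data known, so list counts carry no test and are set beside those of all genes. Named members were those past the threshold, up to 12 in each direction with the largest change among those with an unadjusted p under 0.05 and no overlap (6 higher, 11 lower), and 18 fixed channels, 14 of them measured under their own symbol. Others were named after their values were seen. In other lists the 2 genes with the smallest p were named where the list bears on a member, and further ones after their values were seen.

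Promoter windows from RefSeq (GRCm38.p6, 250 bases before to 50 after a start) were found for 68 members and searched on both strands, and only bases before the start are printed. Array coordinates are not used, as no build is named for the array. Alternatives covered array scaling, dim genes, the variance model, array weights, several features per gene, a replicate block, another threshold and leaving out each tumour.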

Additional observations from a re-analysis of the deposited data

How the results depend on the processing

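Over the alternatives to counts and to the median change of members, 108 values stayed near those reported and 14 moved. The 0 members past the threshold remained 0 in every alternative except without wild type 3 and without knockout 2 (range over left-out tumours 0 to 3), including at an adjusted p of 0.1. Leaving out the dimmest 50% of genes leaves 38 members, of which 13 had an unadjusted p under 0.05 (34.2% beside 20.3% of all genes), 7 higher and 6 lower. There 13 did not overlap, 7 of them lower. With arrays centred on the median of all genes, 5 in place of 8 members were higher without overlap. In either direction 21 members then did not overlap, where 20% of all genes did not. Over left-out tumours the members with an unadjusted p under 0.05 ranged from 15 to 29 (17.4% to 33.7%), beside 9.8% to 16.7% of all genes. The higher among them ranged from 5 to 16, beside 5.23% to 8.33% of all genes, and the lower from 8 to 13. Members without overlap ranged from 25 to 37, of these higher from 8 to 20 and lower from 16 to 21. Groups separate more easily with a tumour fewer, so these counts do not compare with those of the full comparison. The median change ranged from -0.06 to 0.01.

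Of the values for single members, 456 kept direction and side of the threshold, 6 passed it with a tumour left out and 3 reversed. Kcnj3 ranged from -0.30 to 0.0216 and Kcnma1 from -0.24 to 0.14 over left-out tumours, and the cause was not tested. With replicate numbers as a block, 25 members had an unadjusted p under 0.05 (29.1% beside 13.9% of all genes), 12 higher and 13 lower. Of members 0 passed, and 12 in place of 46 genes passed among all genes. Deviations of tumours with the same number correlated at -0.03, 0.05 and 0.10 across genes, so the numbers were not taken as pairs. Without any detection call or read depth, dim members have no firm lower limit.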

Other observations

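Several members had a dimmer feature, not used above, whose groups did not overlap. Kcnmb4, the neuronal BK auxiliary subunit, had a change of -0.45 (SE 0.10) on its dimmer feature and -0.25 (SE 0.13) on the brighter. Kcnq5, an M-current subunit, had changes of -0.42 (SE 0.15) on the dimmer and 0.08 (SE 0.27) on the brighter. Kcnab3, a Kv1 beta subunit, had changes of 0.35 (SE 0.10) on the dimmer and 0.19 (SE 0.13) on the brighter, and the features of Kcnma1 had changes of -0.15 and -0.09. The transcripts that each feature covers were not examined.

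Members that are neighbours outside the Kv1 clusters had changes as follows, and differences between neighbours were not tested. On chromosome 11 Kcnip1 (-0.39) lies next to the BK subunit Kcnmb1 (0.01). On chromosome 16 Kcnj6 (0.52) lies next to Kcnj15 (-0.14), and on chromosome 9 Kcnj5 (0.14) lies next to Kcnj1 (-0.03). On chromosome 14 the leak channels Kcnk5 and Kcnk16 had changes of -0.05 and -0.21.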
